A study of Mastomys natalensis with 3 samples.

Results

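Muc5ac, Tff2 and Tff3 encode secreted proteins of the mucus layer, and they were followed across 3 Affymetrix rat arrays of gastric cells from Mastomys natalensis, an African rodent that develops gastric carcinoids. The members were every probe set whose platform annotation gave only the symbol Muc5ac, Tff2 or Tff3. That gave 4 of 8740 non-control probe sets, and 3 of 4736 singly named genes. Muc5ac was read by the probe sets U44946_s_at and U83139_at, Tff2 by M97255_at and Tff3 by M80826_at, each named after the rat sequence it was built from. The suffix of U44946_s_at marks probes that more than 1 transcript can share.

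Muc5ac is the gel-forming mucin of the gastric surface, made by the foveolar (surface mucous) cells that line the pits of the stomach. Trefoil peptides are small, protease-resistant secreted proteins that are stored with mucins and take part in repair of the epithelium. In the stomach Tff1 is made with Muc5ac in surface cells and Tff2 in the mucous neck cells below them, whereas Tff3 is best known from the goblet cells of the intestine. The samples were collected for another lineage, the enterochromaffin-like (ECL) cell, an endocrine cell of the acid-secreting mucosa that stores histamine.

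There was 1 array per group. The first group was Mastomys given loxtidine, a histamine H2-receptor blocker that suppresses acid secretion, for 8 weeks. The second had received loxtidine for 16 weeks. In the third, an ECL cell carcinoid of the stomach had arisen spontaneously. The labels called every sample an enriched ECL cell population, but their source field named ECL cells only for 8 weeks and gastric mucosa for the others. No untreated array was analysed here. The labels state neither the animals behind a sample nor their age. With 1 array per group there is no replicate, so every difference below describes a pair of arrays and carries no test.

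The share of ECL cell markers at the detection floor was not far from that which its definition, a pooled median, gives for probe sets in general. Of 15 ECL and neuroendocrine markers with a singly named probe set, 9 reached the detection floor at 8 weeks, 9 at 16 weeks and 7 on the carcinoid array. Hdc, the histamine-forming enzyme that defines ECL cells, was under the floor throughout (4.43, 4.77 and 3.20). Cckbr, the gastrin receptor, read 74.3, 56.5 and 35.3 on its brightest probe set, but 2.57, 33.4 and 2.83 on the other. Markers of other gastric cells were present too, with 6, 5 and 5 of 9 parietal genes and 6, 6 and 6 of 7 chief cell genes at the floor. Atp4a, the proton pump subunit of parietal cells, read 966 at 8 weeks, 1449 at 16 weeks and 903 on the carcinoid array on its brightest probe set. Pgc, the pepsinogen C of chief and mucous neck cells, read 4695, 4589 and 3724 in the same order. Fewer cells of a type and less RNA per cell cannot be told apart in such samples.

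Levels are quantile-normalized intensities (arbitrary units, with the same distribution forced on each array) unless called deposited. The floor is their pooled median, 12.4. Of 38 control probe sets with no intended target in this RNA, 8 reached that floor at 8 weeks, 9 at 16 weeks and 9 on the carcinoid array, so a value just above it is hard to tell from background. The RNA controls differed between arrays. The ratio of 3' to 5' deposited intensity was 8.95 at 8 weeks, 1.43 at 16 weeks and 2.31 in the carcinoid for GAPDH, and 16.1, 6.71 and 11.7 for beta-actin. Rat probes met Mastomys RNA, and sequence differences can dim a probe set, so folds are taken only within a probe set. Ranks within an array, the readings of control probes and sums over marker lists do not allow for this.

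Muc5ac was near background at 8 weeks and far above it on both other arrays. Its brighter probe set, U44946_s_at, read 15.8 at 8 weeks, 168 at 16 weeks and 213 on the carcinoid array. The deposited intensities behind these values were 13, 185 and 266. U83139_at read 12.4, 79.2 and 57.7, from deposited intensities of 10.2, 85.3 and 67.7. Its 8-week reading thus lay exactly on the floor. On both probe sets the 8-week array was the low one, and 16 weeks and carcinoid lay close together.

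Set against the controls with no target, Muc5ac was not told from background at 8 weeks. There, 6 of the 38 controls read as bright as U44946_s_at and 8 as bright as U83139_at. At 16 weeks and in the carcinoid, 0 of 38 reached either Muc5ac probe set. Among all non-control probe sets, 56.4% were dimmer than U44946_s_at at 8 weeks, 97.0% at 16 weeks and 97.8% in the carcinoid. For U83139_at the same shares were 50.0%, 92.6% and 88.9%.

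**Figure D1:**
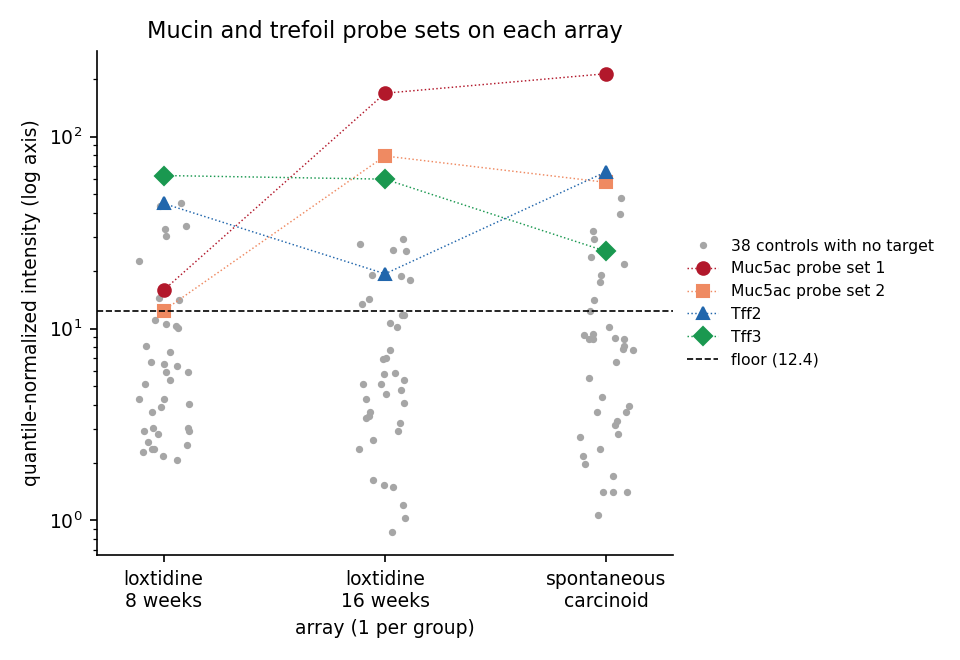
Quantile-normalized intensity (log axis) of each Muc5ac, Tff2 and Tff3 probe set on the 3 arrays, with 38 controls that have no target as grey points, spread sideways for legibility, and the floor of 12.4 as a dashed line. The dotted lines only join points of 1 probe set. Both Muc5ac probe sets lie among the controls at 8 weeks and above all of them on the other arrays.

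In the comparison of 16 with 8 weeks of loxtidine, Muc5ac was higher at 16 weeks on both probe sets. Since its 8-week readings could not be told from background, the size is given as a bound with the floor raised to 30.0, at least 5.61-fold on U44946_s_at and at least 2.64-fold on U83139_at. The readings themselves stood 10.6-fold and 6.39-fold apart (log2 3.41 and 2.68), values that rest on the dim 8-week readings. At least 2-fold higher were 13.9% of 5586 probe sets at or above the floor of 12.4 on at least 1 of the arrays, and at least 2-fold lower 13%. The only error that could be measured is the disagreement between probe sets of the same gene, and it holds no variation between animals. It came to 0.79 on the log2 scale over 410 genes. This spread is the root mean square gap between the 2 brightest measured probe sets, divided by the square root of 2. It is thus a spread per probe set, smaller than the gap between 2. The Muc5ac probe sets lay 0.73 apart, a gap not divided in this way.

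Tff2 was lower at 16 than at 8 weeks. It read 44.8 at 8 weeks and 19.3 at 16 weeks, a 2.33-fold difference (log2 -1.22) that 476 of the 5586 probe sets equalled or passed downward, itself included. At 16 weeks 4 of the 38 controls were as bright as Tff2, against 1 at 8 weeks and 0 in the carcinoid. The size depended on scaling, at 1.70-fold lower in the deposited values (34.6 and 20.4), where all probe sets shifted up by a median of 0.42 on the log2 scale. Tff3, at 62.7 and 59.97, differed by 1.04-fold (log2 -0.06), and the sign turned in the deposited values (46.9 and 64). Of the 4 probe sets, therefore, 2 were at least 2-fold higher and 1 at least 2-fold lower.

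In the comparison of the carcinoid with 8 weeks, both Muc5ac probe sets were higher in the carcinoid and Tff3 was the low member. With the floor at 30.0, Muc5ac was at least 7.08-fold higher on U44946_s_at and at least 1.92-fold higher on U83139_at. The readings stood 13.4-fold and 4.65-fold apart (log2 3.75 and 2.22; 20.4-fold and 6.64-fold as deposited), again against the 8-week readings near background. These log2 values lay 1.53 apart, so no single size can be given. The spread in this comparison was 0.82 per probe set (395 genes), a smaller measure than a gap between probe sets. At least 2-fold higher were 14.6% of 5620 probe sets, and at least 2-fold lower 14%.

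Tff3 read 62.7 at 8 weeks and 25.2 in the carcinoid, 2.49-fold lower (log2 -1.31), and 417 of the 5620 probe sets lay as far downward. In the deposited values it was 1.67-fold lower (46.9 and 28.1). Tff3 was brighter than all 38 controls at 8 and 16 weeks, whereas 4 controls were as bright in the carcinoid. Tff2 read 65.6 in the carcinoid against 44.8 at 8 weeks, 1.47-fold higher (log2 0.55), a difference within the spread between probe sets. As deposited it was 2.24-fold higher (77.6 and 34.6).

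The third comparison set the carcinoid against 16 weeks and does not involve the 8-week array. Here the trefoil peptides differed in opposite directions and Muc5ac hardly at all. Tff2 was 3.41-fold higher in the carcinoid (65.6 against 19.3, log2 1.77), and 60 of 5439 probe sets lay as far upward. Tff3 was 2.38-fold lower (25.2 against 59.97, log2 -1.25), and 287 lay as far downward. Both differences exceeded the spread of 0.62 (457 genes). At least 2-fold higher were 9.38% of the 5439 probe sets and at least 2-fold lower 9.67%.

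The Muc5ac probe sets disagreed in sign between carcinoid and 16 weeks. U44946_s_at was 1.26-fold higher (log2 0.34) and U83139_at 1.37-fold lower (log2 -0.46), so no direction can be given. As deposited, Tff2 was 3.80-fold higher and Tff3 2.28-fold lower, close to the normalized values. All 3 comparisons share arrays pairwise, so their results are not independent of each other.

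**Figure D2:**
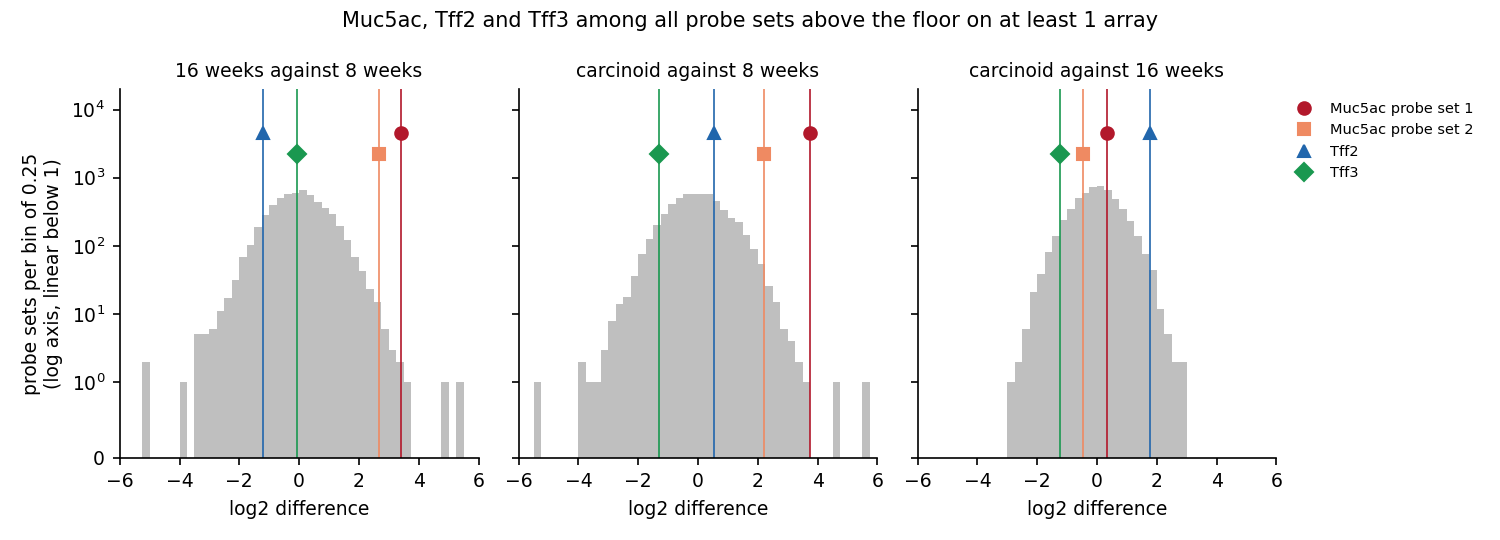
Histograms of the log2 difference of every non-control probe set at or above the floor on at least 1 array of the pair (bins of 0.25, count on a log axis that is linear below 1), with each Muc5ac, Tff2 and Tff3 probe set as a coloured line and marker whose height has no meaning. Muc5ac lies to the right of most probe sets against 8 weeks, where its position rests on 8-week readings near background, and near 0 between carcinoid and 16 weeks, where Tff2 lies at 1.77 and Tff3 at -1.25.

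The share of higher and lower differences over the whole array depended on scaling. For 16 against 8 weeks, 51.7% of the differences of at least 2-fold were upward after quantile normalization, 77.4% in the deposited values and 76.4% after scaling to the bacterial hybridisation controls. For carcinoid against 8 weeks the shares were 51.2%, 81.1% and 93.1%, and for carcinoid against 16 weeks 49.2%, 55.8% and 88.1%. Muc5ac stayed higher than at 8 weeks on both probe sets under each of these scalings. Scaling to the bacterial controls shifted all probe sets upward by a median of 0.96 for carcinoid against 8 weeks, which left Tff3 1.17-fold lower, and by 0.66 for carcinoid against 16 weeks, which left it 1.504-fold lower.

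Among other mucins, Muc1 alone had its lowest reading at 8 weeks on its brightest probe set, and by a small margin. Of 14 other mucins listed, 5 had a singly named probe set, and their brightest probe sets reached the floor on all 3 arrays. None was at least 2-fold higher at 16 than at 8 weeks, 2 were at least 2-fold lower, and the median log2 difference was -0.88 (all genes 0.01, with 13.96% higher and 12.9% lower). Muc13, a membrane mucin of gut epithelium, read 59.9 at 8 weeks, 18.6 at 16 weeks and 37.5 in the carcinoid, 3.23-fold lower at 16 than at 8 weeks. Its second probe set was at least 2.24-fold lower. Muc2, the goblet cell mucin, read 42.5, 17.4 and 30.0 on its only probe set above the floor.

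Muc4, another membrane mucin, read 38.8, 21.1 and 36.1. Muc2, Muc4 and Muc13 were thus lowest at 16 weeks, the array on which Tff2 was lowest too. Muc1, the membrane mucin of most simple epithelia, read 98.8, 119 and 109.8, at most 1.20-fold apart. Muc3 read 57.7, 45.5 and 38.3 on its brightest probe set, but another of its probe sets was at least 4.21-fold lower in the carcinoid than at 16 weeks, and the last reached the floor at 16 weeks alone (23.2). Between carcinoid and 8 weeks none of the 5 mucins was 2-fold apart in either direction on its brightest probe set (median -0.50, and 0.02 as deposited). Between carcinoid and 16 weeks Muc13 was higher, by 2.02-fold, and none was lower.

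Tff1, the trefoil peptide made alongside Muc5ac, read 1124 at 8 weeks, 831 at 16 weeks and 1213 in the carcinoid. It was 1.35-fold lower at 16 than at 8 weeks and 1.08-fold higher in the carcinoid than at 8 weeks. As deposited the first difference turned to 1.30-fold higher and the other grew to 2.26-fold higher. Over the scalings run, its log2 difference between 16 and 8 weeks ranged from -0.44 to 0.38.

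Of 20 other surface and neck cell genes listed, 10 were on the array under a single symbol. At 16 against 8 weeks 8 reached the floor on either array, of which 1 was at least 2-fold higher and 0 lower (median -0.28, and 0.33 as deposited). In the carcinoid 1 of 7 was higher and 1 lower than at 8 weeks, and 2 of 8 were higher and 2 lower than at 16 weeks. Over all genes the shares higher and lower were 13.96% and 12.9% at 16 against 8 weeks. For the carcinoid they were 14.6% and 13.7% against 8 weeks, and 9.41% and 9.29% against 16 weeks. Capn9, a calpain protease of the digestive tract, read 29.2, 46.5 and 106 and was 3.64-fold higher in the carcinoid than at 8 weeks. Aqp5, a water channel of secretory glands, reached the floor at 16 weeks alone, at 42.8, at least 3.45-fold above either other array, but its other probe set was below the floor throughout (7.43, 1.7 and 7.03). Ctse, the aspartic protease cathepsin E of surface cells, read 26.7, 31.8 and 14.3, and was 2.22-fold lower in the carcinoid than at 16 weeks. Dmbt1, a secreted scavenger receptor glycoprotein, read 101, 58.5 and 45.5, and 29.0, 27.4 and 8.77 on its other probe set. Gkn1, gastrokine 1 of the same surface cells as Muc5ac, read 28.7, 26.2 and 28.7.

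**Figure D3:**
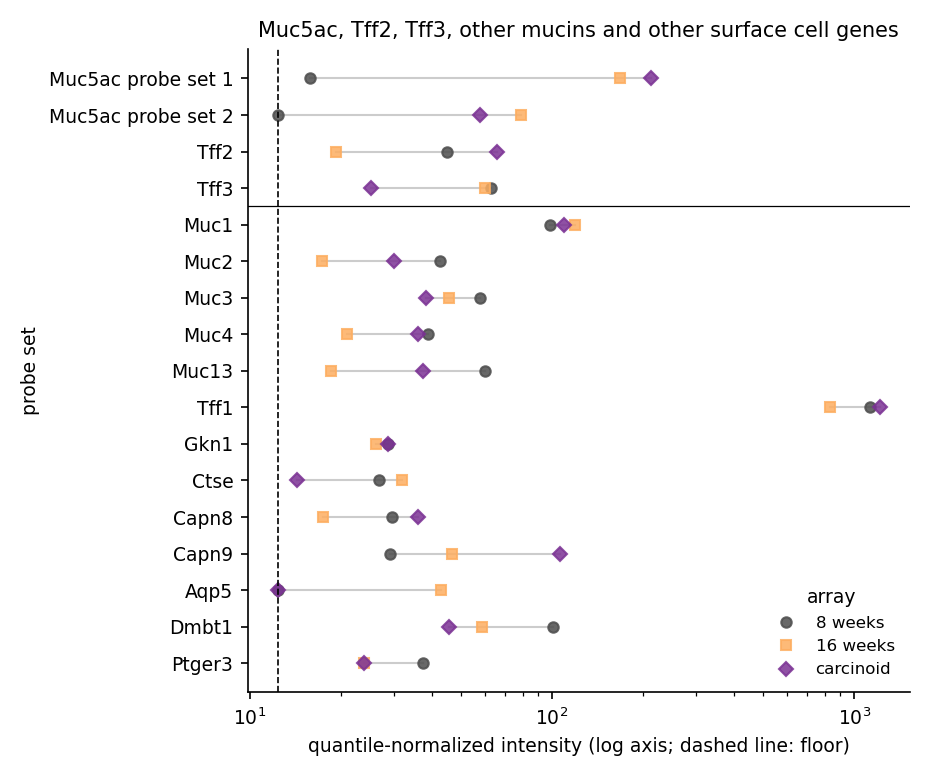
Quantile-normalized intensity (log axis, values under the floor of 12.4 drawn at it) of the Muc5ac, Tff2 and Tff3 probe sets above the line, and below it the brightest probe set of each other mucin and surface or neck cell gene that reached the floor, with 1 marker per array. Both Muc5ac probe sets have the 8-week marker alone at the left, whereas Muc2, Muc4, Muc13 and Tff2 have the 16-week marker at the left.

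Of 41 listed enzymes that attach or extend the sugar chains of mucins, 16 were on the array. At 16 against 8 weeks 4 of 14 above the floor were at least 2-fold higher and 2 lower (all genes 13.96% and 12.9%). In the carcinoid against 8 weeks 0 of 11 were higher and 3 lower (all genes 14.6% and 13.7%). In the carcinoid against 16 weeks 1 of 11 was higher and 5 lower (median -0.94, and -1.05 as deposited, against 0.01 for all genes, of which 9.41% were higher and 9.29% lower). Gcnt3, which builds the branched cores of mucin sugars, read 51.1, 14.1 and 47.5, the low 16-week value that Tff2 also had. Galnt5, which starts such chains, read 44.4 at 16 weeks against 10.4 at 8 weeks and 14.9 in the carcinoid. Abo, the blood group glycosyltransferase, read 49.9, 34.0 and 6.7, and B4galt1, a galactosyltransferase, reached the floor at 8 weeks alone, at 38.2.

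Of 11 transcription factors of gastric and mucous epithelium on the array, 8 could be compared between 16 and 8 weeks, and 2 were at least 2-fold higher and 1 lower. Of all genes, 13.96% were higher and 12.9% lower in the normalized values. As deposited the counts were 4 and 0, beside 1193 higher and 348 lower of all 5473 probe sets compared in those values. In the carcinoid against 8 weeks 2 of 10 were higher and 1 lower (all genes 14.6% and 13.7%). After scaling to the bacterial controls the counts were 7 and 0, beside 2491 higher and 184 lower of all 5848 probe sets compared. Gata6, an endodermal factor, read 85.1 at 8 weeks, 387 at 16 weeks and 340.5 in the carcinoid, 4.55-fold and 3.999-fold higher than at 8 weeks, while its other probe sets stayed under the floor on every array. Foxa2, a forkhead factor of endoderm, read 2.47, 38.6 and 49.8, higher by at least 3.11-fold at 16 weeks and 4.02-fold in the carcinoid. Like Muc5ac, both were lowest at 8 weeks. Foxa1, a related factor, read 19.9, 32.9 and 13.1, and Pdx1, a factor of antrum and pancreas, 33.0, 20.5 and 10.6.

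Of genes of the secretory machinery, 1 of 11 was at least 2-fold higher and 1 lower at 16 against 8 weeks, near the shares of all genes. In the carcinoid against 8 weeks 0 of 13 were higher and 1 lower (all genes 14.6% and 13.7%). After scaling to the bacterial controls 5 and 0 of 14 were, beside 2491 and 184 of all 5848 probe sets compared. Hspa5, the chaperone BiP, read 337, 168 and 149, and Pdia3, a disulfide isomerase, 121, 187 and 227. Pdia4, another isomerase, read 46.3, 23.2 and 23.8, and the secretory vesicle GTPase Rab26 read 12.03, 29.5 and 13.0. Of 24 ligands, receptors and related genes that act on mucous cells, 16 could be compared at 16 against 8 weeks, with 3 higher and 5 lower (all genes 13.96% and 12.9%). Ptgs2, the inducible cyclooxygenase, read 37.8, 4.1 and 4.93 on its brightest probe set but 12.2, 2.87 and 23.4 on the other. Hbegf, an EGF receptor ligand, read 34.7, 6.27 and 5.17 on its brightest probe set but 14.9, 12.4 and 6.17 on the other. Chrm1, a muscarinic acetylcholine receptor, read 47.5, 11.7 and 13.0 (25.2, 4.83 and 26.5 on its other probe set), and Cxcr4, a chemokine receptor to which Tff2 has been linked, 7.03, 24.97 and 38.6.

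Markers of general epithelium were also lowest at 8 weeks in sum. Their summed level over 10 genes was 238 at 8 weeks, 409 at 16 weeks and 561 in the carcinoid, an order that U44946_s_at shares and U83139_at does not. Of 8 genes above the floor, 2 were at least 2-fold higher and 1 lower at 16 than at 8 weeks (all genes 13.96% and 12.9%). In the carcinoid 3 were higher and 0 lower than at 8 weeks (all genes 14.6% and 13.7%). Their median log2 differences were 0.66 and 0.79, or 1.098 and 1.27 as deposited. Krt8, a keratin of simple epithelium, read 41.5, 118 and 203 and was the brightest of the list at 16 weeks and in the carcinoid. Without Krt8 the sums were 197, 291 and 358. Jup, the junction protein plakoglobin, read 29.6, 3.93 and 35.2, and Cldn7, a claudin, 10.8, 31.7 and 13.5. Fibroblast markers had sums of 1466, 589 and 469 over 7 genes, but 376, 273 and 207 without decorin (Dcn), whose probe sets disagreed. Squamous forestomach markers had sums of 156, 66.1 and 50.4 over 5 genes, but 68.85, 52.4 and 36.7 without Krt4. Chief cell markers summed to 8545, 10717 and 8196 over 7 genes (3850, 6128 and 4472 without Pgc). Parietal markers summed to 1905, 2066 and 1701 over 9 genes, but to 939, 617 and 798 without Atp4a, then lowest at 16 weeks. ECL and neuroendocrine markers summed to 475, 526 and 329 over 15 genes (326, 315 and 202 without Pam). Leukocyte markers summed to 302, 184 and 127 over 9 genes, mast cell markers to 385, 208 and 207 over 8 and exocrine pancreas markers to 1445, 1432 and 653 over 16 (386, 308 and 309.7 without the colipase gene Clps). Smooth muscle markers summed to 72.2, 103 and 109.9 over 6 genes (33.2, 76.7 and 101 without Actg2), also lowest at 8 weeks. Erythroid markers summed to 180.2, 153 and 186 over 3 (78.1, 78.9 and 98.7 without Slc4a1). For intestinal epithelium, the usual home of Tff3, 12 markers summed to 311, 210 and 285 (188, 149 and 199 without Mep1a). Of these markers 5, 5 and 4 were at or above the floor, and Fabp1 and Cdh17 were below it throughout. Lct, the lactase of the intestinal brush border, read 49.2, 37.9 and 7.37, lowest in the carcinoid like Tff3, and its other probe set 47.0, 34.7 and 3.93. Fabp2 (2.57, 17.9 and 2.47) and Guca2a (7.7, 3.87 and 1.63) were lowest in the carcinoid too, but under the floor there. Other markers of the list that reached the floor on all 3 arrays were not lowest in the carcinoid on their brightest probe sets. Mep1a read 123, 60.7 and 86.4, Anpep 60.5, 31.05 and 38.1, and Alpi 31.4, 40.8 and 40.2. Lgals4, a galectin of gut epithelium, reached the floor in the carcinoid alone, at 77.9. A reading near background at 8 weeks alone also occurred on some probe sets of genes whose brightest probe set was well above it, noticed after the values were seen. Cblif, a chief cell marker, read 5.4, 73.7 and 64.3 on 1 probe set and 452, 512 and 386 on its brightest. Krt18, a keratin, read 7.3, 78.3 and 137 on 1 and 64.1, 110 and 121 on its brightest. Ocln split both ways, with 33.2, 6.8 and 7.03 on 1 probe set and 2.47, 33.2 and 6.27 on another. Its brightest read 16.0, 23.2 and 18.9. The brightest Atp4a probe set, given above, was bright on every array, but the other probe sets of this gene read 4.2 at 8 weeks, 95.4 at 16 weeks and 55.0 in the carcinoid, and 4.67, 30.2 and 15.6. The part of cell makeup in the Muc5ac, Tff2 and Tff3 differences was not tested, nor was that of the dim 5' controls on the 8-week array.

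Genes whose levels moved most like each probe set were ranked among 1746 genes measured on all arrays, by the distance between log2 values centred on their mean over the 3 arrays. With only 3 points such likeness is a description. Nearest to U44946_s_at was Cd63, a tetraspanin of lysosomes and secretory vesicles (distance 0.32; 13.9, 113 and 141), followed by Aldoa (0.65), Itm2b (0.80), Cdc34 (0.84) and Atp5po (0.84). Nearest to U83139_at was Rbm39 (0.19), then Atp5po (0.24), Ppib (0.30), Eif4a2 (0.30) and Cul2 (0.31). Atp5po was the gene that both Muc5ac probe sets named, although its other probe set read 245, 126 and 134. Other probe sets of Cdc34 (53.2, 36.9 and 62.8, and 96.4, 47.9 and 91.8) and of Ppib (85.8, 82.6 and 44.0) also lacked a low 8-week reading. Tff2 was nearest to Ckmt1, a mitochondrial creatine kinase (0.13; 81.7, 39.2 and 119, but 88.5, 45.2 and 39.5 on its other probe set), and then Svil, Stx5, Tacr2 and Lim2 (0.22 to 0.24). Tff3 was nearest to Nap1l4 (0.08), Nenf (0.09), Ppp1r21 (0.11), Acvrl1 (0.12) and Slc22a13 (0.13). The other probe sets of Svil, Stx5 and Nap1l4 were under the floor throughout.

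**Figure D4:**
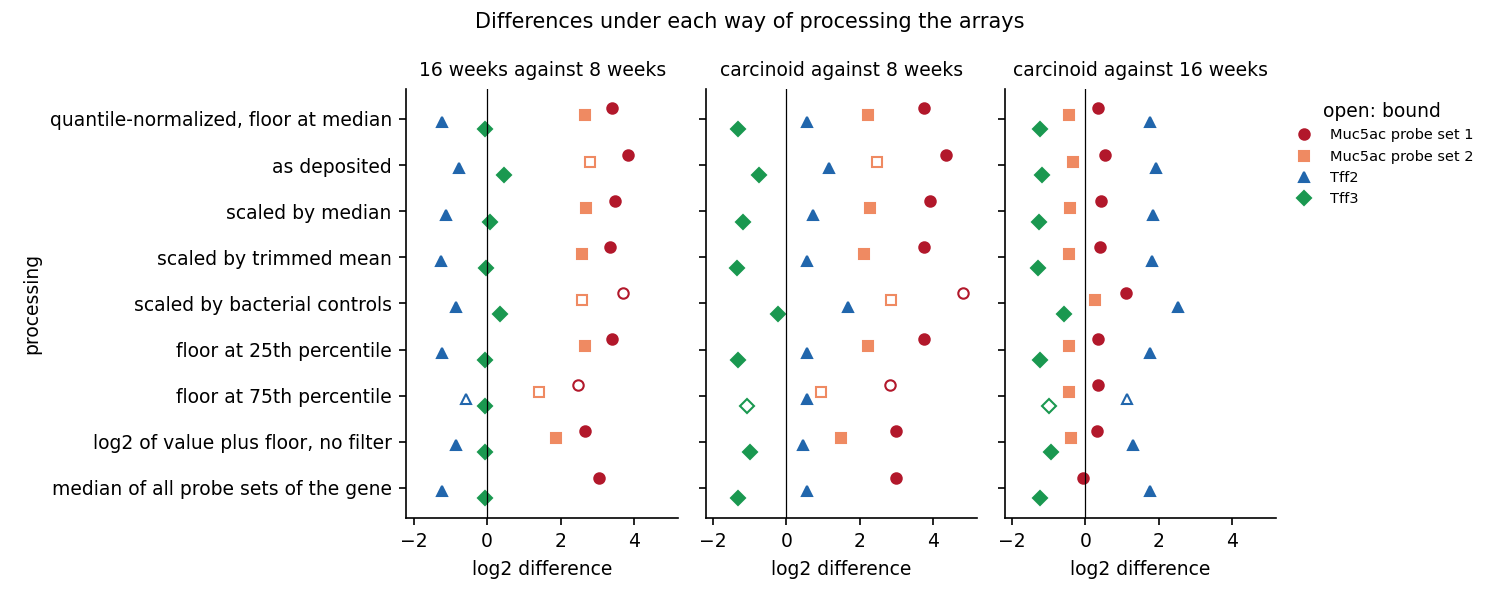
Log2 differences of the Muc5ac, Tff2 and Tff3 probe sets (horizontal axis) in each comparison under each way of processing the arrays (vertical axis), where open markers are bounds because 1 array was under the floor. Muc5ac lies right of 0 against 8 weeks in every row, from 2.49 to 3.83 at 16 weeks on its brighter probe set, and Tff3 straddles 0 between 16 and 8 weeks.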

How the data were processed

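RNA of each sample was hybridised to 1 Affymetrix rat array, and the deposited table holds 1 linear intensity per probe set and array, as made by the authors. Its algorithm and scaling are not given in the sources used here. Detection calls were not used. All 8799 probe sets were quantile-normalized together, because the trimmed means (2% off each end) of the deposited intensity differed, at 17.8, 25.1 and 27.2. Values under the floor, the pooled median of non-control values, were set to the floor and log2-transformed. Folds are bounds ("at least") where 1 array was below the floor, and none is given where both were. Each gene was represented by its probe set of highest mean deposited intensity. Gene symbols are those of the array platform's annotation. Of the non-control probe sets, 7006 had 1 symbol, 308 several and 1426 none.

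The members and the companion and marker lists were chosen with earlier results of these data known. Named were all member probe sets, up to 4 genes per companion list with the widest range over the arrays, Tff1 and other mucins, and the 5 genes nearest in pattern. Markers and Gkn1 were picked for their role. Alternatives were the deposited values, scaling by median, trimmed mean or bacterial controls, floors at the 25th (4.2) and 75th percentile, the floor added as a pseudocount, 1 probe set per gene and the median of probe sets. Steps were tested on simulated data. Python 3.11.15, pandas 2.3.3 and numpy 2.4.6 were used.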

Additional observations from a re-analysis of the deposited data

How the results depend on the processing

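With 1 array per group, an alternative was judged against the spread between probe sets of a gene. No difference of at least 2-fold changed sign for any Muc5ac, Tff2 or Tff3 probe set under the alternatives run. With the floor at the 75th percentile (30.0), Muc5ac was bounded at log2 2.49 (16 against 8 weeks) and 2.82 (carcinoid against 8 weeks), and Tff2 at 1.13 (carcinoid against 16 weeks), by construction. Scaling to the bacterial controls gave log2 differences of at least 4.82 for Muc5ac (a bound, with 8 weeks under the floor) and of 1.67 for Tff2 (carcinoid against 8 weeks), 1.12 for Muc5ac and 2.53 for Tff2 (carcinoid against 16 weeks), and -0.23 and -0.59 for Tff3 in those comparisons. For U83139_at it turned carcinoid against 16 weeks to 0.27. The median of both Muc5ac probe sets was -0.06 in that comparison. Tff2 at 16 against 8 weeks missed 2-fold as deposited (1.70-fold), with the bacterial controls (1.81-fold), with log2 of the value plus the floor (1.81-fold) and with the higher floor (at least 1.49-fold). Tff3 in the carcinoid missed it as deposited (1.67-fold against 8 weeks), with the bacterial controls (1.17-fold and 1.504-fold against 8 and 16 weeks), with log2 of the value plus the floor (1.996-fold against 8 weeks, 1.92-fold against 16 weeks), and narrowly against 16 weeks with the higher floor (at least 1.999-fold).

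Probe sets at least 2-fold apart numbered 1499, 1607 and 1036 in the order of the comparisons. They numbered 3235, 3331 and 2718 with the floor at the 25th percentile, 378, 444 and 160 with it at the 75th, and 897, 955 and 616 with 1 probe set per gene, which tests fewer. With the bacterial controls, carcinoid against 8 and 16 weeks gave 2675 and 2038. No paired analysis was possible because each group holds 1 array, and none could be left out. How deeply any transcript was measured is limited by signal over background, above all for Muc5ac at 8 weeks.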
